A study of Mus musculus with 7 samples.

Results

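The 368 rows described here were chosen by their signal in the untagged Flag ChIP, the ChIP of E14 ESCs that carry no Flag epitope. A row is the stretch from 2000 bp upstream to 2000 bp downstream of 1 transcription start site (TSS) in 20 bp steps, and a row was taken when its mean over the whole stretch was above the 99th percentile of the file, 0.277 ppm (ppm, coverage scaled to the normalizing reads of the file). These were 368 of 36733 rows (1.00%). Because windows of neighbouring TSSs share reads, the rows are not independent, and merging overlapping windows left 294 loci, of which 242 held 1 row, 38 held 2 and 14 held 3 or more. The untagged values are what chose the rows and are given as a description, without a test.

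The series holds 7 ChIP-seq samples of mouse E14 ESCs, 1 per condition, so no difference has a replicate check. Tip60-H3F ESCs, in which a histidine and Flag tag was targeted to the endogenous Tip60 gene, were immunoprecipitated with Flag-M2 upon GFP KD (the control knockdown) and upon Hdac6 KD. Hdac6-H3F ESCs, tagged at the endogenous Hdac6 gene in the same way, were immunoprecipitated with Flag-M2 upon GFP KD and upon Tip60 KD, and wildtype ESCs were immunoprecipitated with an antibody to p400 upon GFP KD and Hdac6 KD. Knockdowns were made with shRNA lentivirus and cells were taken 72 hr after infection, whereas the untagged sample is labelled WT and no knockdown is named for it. The Hdac6 ChIP named Tip60 KD in its title carries Hdac6 KD in its genotype label, and the title was followed here. The p400 antibody recognises endogenous p400, and the p400 files hold only rows with a RefSeq identifier, so 235 of the 368 rows had p400 values and 133 did not. The files were normalized to between 9226709 (Hdac6 ChIP, Tip60 KD) and 31375600 reads (p400 ChIP, Hdac6 KD), and to 23146808 in the untagged ChIP.

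In a ChIP, an antibody is used to pull down crosslinked chromatin, and sequenced fragments pile up where the bound protein sat. Fragments also come down in cells that lack the epitope, through open chromatin that shears and recovers well, through sequences whose reads come from many places, and through proteins that the beads or antibody hold on their own, which is why an untagged sample is sequenced beside the tagged ones. Tip60 is the acetyltransferase and p400 the ATPase of the Tip60-p400 chromatin complex, and Hdac6 is a deacetylase.

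The rows fell into 4 classes whose definitions the rule did not use, though the focal class was defined on the same untagged values. A row was called focal where the densest 300 bp held at least 25% of its untagged signal (a flat profile would hold 7.46%), repeated where at least 10% of its 50-base stretches occur more than once in the genome, mitochondrial on chromosome M, and otherwise broad. There were 300 broad, 36 focal, 27 repeated and 5 mitochondrial rows. The classes and the motif search that follows were set after the values had been seen.

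At 12 of the 36 focal rows (33.3%), the window held a near match to the RE1 element, the DNA sequence bound by REST, which silences neuronal genes in cells outside the nervous system. The element was searched on both strands as TTCAGCACC, 2 free bases and GGACAGCGC, with at least 16 of the 18 letters matched. The same search found a match in 4 of 300 broad rows (1.33%), in 16 of all 368 rows (4.35%) and in 146 of the 36733 windows of the file (0.397%). With at least 15 letters the counts were 13 focal rows and 395 windows of the file (1.08%), and the exact left part TTCAGCACC lay inside the densest 300 bp of 13 focal rows (36.1%) against 235 of all rows (0.64%). A match is a description of the letters and was not tested as a bound site. The sequences of the 13 focal rows with at least 15 letters are printed. At 11 of them the element lies inside the densest 300 bp of the untagged signal, 13 to 131 bp from its centre. At Vstm2l it lies just outside, at 161 bp, and at Celsr3 it lies at 1112 bp, but the densest 300 bp of both held the exact left part at another place. Each is 30 bases of NCBIM37 (mm9) in the direction of the element, with the 20 bases of the matched frame in capitals.
Npas4, chr19:4989155-4989184, plus strand, intron of Npas4: tgggaTTCAGCACCGCGGACAGCTCctgcg
The unnamed row at chr7 6362987, chr7:6362979-6363008, plus strand, untranslated exon of Gm16532: cgtggTTCAGCACCAAGGACAGCGTgcctt
Gprin1, chr13:54852237-54852266, plus strand, between annotated genes: ccgttTTCAGGACCACGGACAGCGCacaga
Vstm2l, chr2:157739005-157739034, minus strand, between annotated genes: acagtTTCAGCACCACGGACAGCTCctctt
Celsr3, chr9:108728244-108728273, plus strand, between annotated genes: ctccgTTCAGCACCGTGGGCAGCACttctg
Rtbdn, chr8:87471242-87471271, minus strand, intron of Rtbdn: catatTTCAGCACCGTGGACAGTAGcacga
Glra1, chr11:55421434-55421463, plus strand, untranslated exon of Glra1: gcaggTTCAGCACCACGGAGAGCGTccagc
Scrt1, chr15:76352682-76352711, plus strand, between annotated genes: gcagcTTCAGCACCGCGGCCAGCGCtggct
Xkr7, chr2:152858124-152858153, plus strand, coding exon of Xkr7: ccgccGTCAGCACCAAGGACAGCGAcatag
The unnamed row at chr7 52026219, chr7:52025560-52025589, plus strand, intron of Vrk3: tggcgTTCAGCACCGAGGACAGCTAcacac
Golga7b, chr19:42330448-42330477, plus strand, untranslated exon of Golga7b: cccgcGTCAGCACCGTGGACAGCACggacc
Lin28a, chr4:133576707-133576736, minus strand, between annotated genes: gcgctCTCAGCACCCTGGACAGAGCaagtg
Dlgap3, chr4:126850952-126850981, minus strand, intron of Dlgap3: accctTTCAGTACCCGGGACAGCTCcaaag
None of the 368 rows matched all 18 letters, while 7 of the 36733 windows of the file did.

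The signal of the chosen rows was spread over a steep head and a long flat tail. 315 of them (85.6%) lay under 0.35 ppm, 24 lay over 0.5 ppm and 13 over 1 ppm, and together they held 2.89% of the summed untagged signal of the file. The median was 0.296 ppm against 0.155 ppm over all rows, and the rows held 86 to 4464 reads (median 92, against 48 over all rows).

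**Figure D1:**
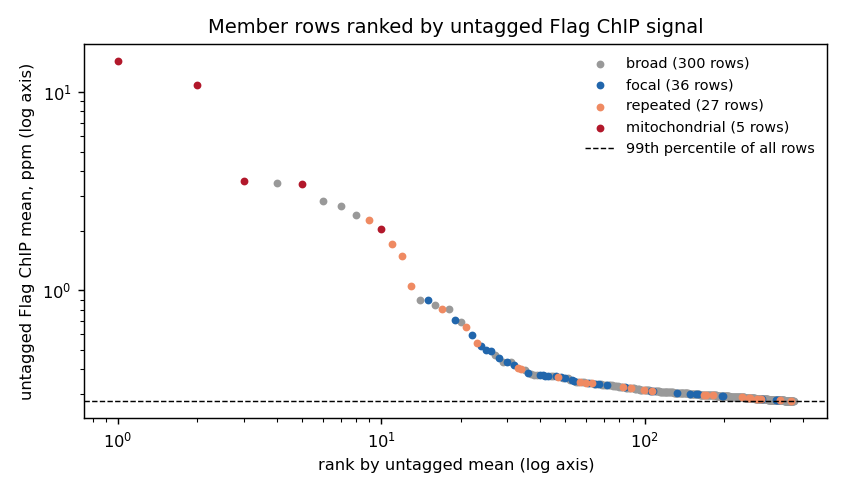
Untagged Flag ChIP mean (ppm, log axis) of each of the 368 rows against its rank (log axis), coloured by class, with the 99th percentile of all rows (0.277 ppm) as a dashed line. The 5 mitochondrial rows and the rows at Sfi1 lie at the top, up to 14.3 ppm, and most of the 300 broad rows lie just above the line.

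At the threshold the choice was arbitrary. The lowest rows inside were an unnamed row at chr11 87218567 (0.277 ppm), one at chr13 17787387 (0.277 ppm) and 2500003M10Rik (0.27684 ppm), and the highest rows outside were Dido1, Rps26 and Herpud1, at 0.27684 ppm as well. 4 rows had the same summed signal there within rounding, and only the last printed digits put 2500003M10Rik inside and the others outside.

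The highest row of all lay on the mitochondrial genome, which bears no nucleosomes and is present in many copies per cell. The row at chrM 12406, in mt-Nd5 (a subunit of respiratory complex I), had 14.3 ppm in the untagged ChIP, 15.3 ppm in the Tip60 ChIP upon GFP KD against 19.2 ppm upon Hdac6 KD. The Hdac6 ChIP gave 11.7 ppm upon GFP KD and 13.1 ppm upon Tip60 KD. It was the highest row of all 5 Flag ChIP files. All 5 rows of chromosome M in the file were chosen, and their median was 22.9 times the median of all rows in the untagged file and 23.9 to 34.1 times in the other 4 Flag files.

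A block of 7 rows at Sfi1, a gene for a centrin-binding protein of the spindle pole, came next (chr11:3025791-3093466). The annotated Sfi1 row at chr11 3093466 had 3.49 ppm in the untagged ChIP, 3.58 and 3.63 ppm in the Tip60 ChIP upon GFP KD and Hdac6 KD, 2.31 and 2.35 ppm in the Hdac6 ChIP upon GFP KD and Tip60 KD, and 5.03 and 4.24 ppm in the p400 ChIP upon GFP KD and Hdac6 KD. Another row named Sfi1 at chr11 3057939 had 2.83 ppm in the untagged ChIP, 3.56 ppm in the p400 ChIP upon GFP KD, and 3.86 ppm there upon Hdac6 KD. Both were at the top of the p400 files too. Unnamed rows of the block at chr11 3033889 and chr11 3050541 had 2.66 and 1.72 ppm in the untagged ChIP. The block stood at a median of 15.4 times the file median in the untagged ChIP and at 17.7 to 24.9 times in the other 6 files (2 of the rows have p400 values), while 25 rows within 0.5 Mb of it stood at 1.28 times in the untagged ChIP. Between 2.99% and 36.3% of the 50-base stretches of the 7 windows were repeated in the genome, so most of their length was unique in the reference.

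The other rows among the 10 highest loci lay near chromosome ends or in repeated sequence, apart from Npas4. The row at chr8 19984375 (1.49 ppm untagged, 42.8% of its stretches repeated) belonged to 4 chosen rows at chr8:19893017-19984375. Rows at chrX 166424871 and chrX 166416849 had 1.05 and 0.897 ppm and belonged to 4 rows at chrX:166410817-166424871, over Mid1, a ubiquitin ligase gene that reaches the pseudoautosomal end of the X chromosome. These 4 rows stood at 5.21 to 6.75 times the file median in the untagged ChIP, against a median of 0.676 times for the 5 neighbouring rows within 0.5 Mb. In the Hdac6 sample with GFP KD they stood at 3.78 to 12.7 times, and those neighbours at 0.321 times. The row at chr17 3082572, in the pseudogene Pisd-ps2, had 0.809 ppm and lay with 2 more chosen rows whose windows were 27.9% to 49.8% repeated. The remaining one, Npas4 (an activity-dependent transcription factor of neurons), had 0.897 ppm and was focal.

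Chromosomes 17 and 11 held more of the chosen rows than of all rows. Chromosome 17 had 54 of them (14.7%) against 5.30% of all rows, and 33 of the 294 loci (11.2%). Chromosome 11 had 48 (13.0%) against 7.09%, and 40 loci (13.6%). Chromosome 2 followed with 31, chromosome 7 with 27 and chromosome 1 with 26, which on chromosomes 2 and 7 was close to their shares of all rows (8.71% and 8.51%). Chromosome X had 4 of its 1270 rows chosen (0.315%) and chromosome Y none of 17.

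**Figure D2:**
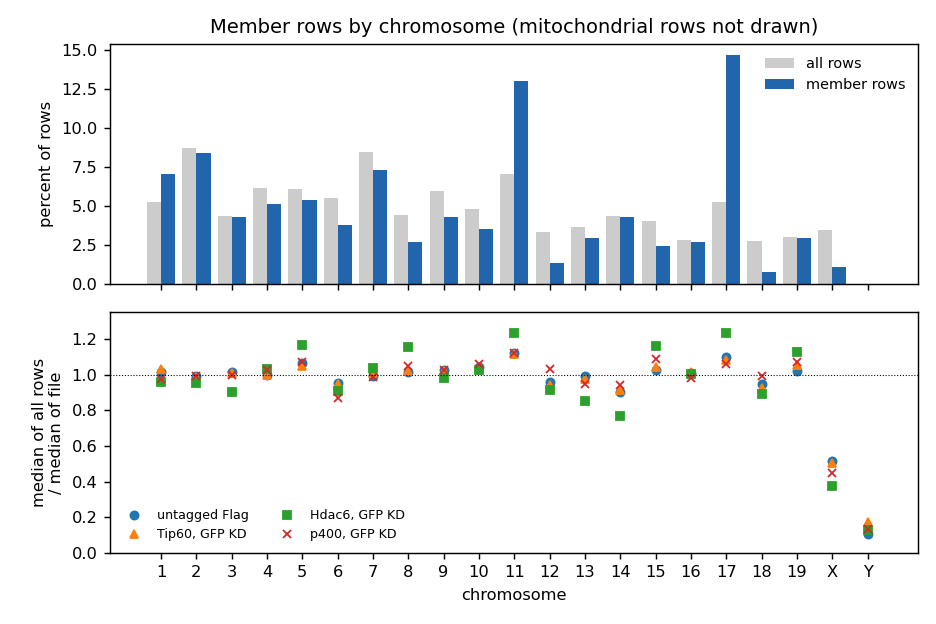
Upper panel, percent of all rows (grey bars) and of the chosen rows (blue bars) on each chromosome, without the mitochondrial rows. Lower panel, median of all rows of a chromosome over the median of the file in the untagged ChIP and the 3 GFP KD samples. Chromosomes 11 and 17 carry 13.0% and 14.7% of the chosen rows and lie at 1.12 and 1.10 in the untagged ChIP, and chromosome X lies at 0.514.

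Chromosomes 11, 17 and X also stood apart in the level of all their rows. The median of all rows of chromosome 11 was 1.12 times that of the untagged file, that of chromosome 17 was 1.10 times and that of chromosome X 0.514 times, and in the Hdac6 ChIP upon GFP KD the values were 1.23, 1.23 and 0.377 times. On other chromosomes the level and the share chosen did not always go together. Chromosome 5 stood at 1.06 times in the untagged ChIP with 0.895% of its rows chosen and chromosome 10 at 1.04 times with 0.736%, whereas chromosome 1 stood at 1.01 times with 1.33%. Median GC content was 49.4% on chromosome 11, 50.1% on chromosome 17 and 44.8% on chromosome X, against 47.8% over all rows. The part of GC content or of chromosome copies in the counts was not tested.

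Neighbouring rows were often chosen together. The locus with the most rows was chr17:27437582-27442543, with 7 of the 23 rows that start there. It belongs to a stretch of unnamed rows at chr17:27431738-27499221, where 229 further rows were not chosen but stood at a median of 1.43 times the file median in the untagged ChIP and at 2.00 times in the Hdac6 ChIP upon GFP KD. Stk16 and Glb1l, whose windows overlap, had 4 rows, as did Wiz, which encodes a zinc finger partner of the G9a methyltransferase. Loci of 3 rows were Fn1 (fibronectin), Dcaf8, Mrps18b with Ppp1r10, Neat1 (the noncoding RNA of paraspeckles), Mrpl24, Rnf4, Clns1a, Pisd-ps2, part of the Sfi1 block, and part of the Mid1 rows.

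On chromosome 17, 4 chosen rows of adjoining genes had higher medians than the rows around them in every file. Btbd9, Glo1 (glyoxalase I, which detoxifies methylglyoxal), an unnamed row at chr17 30940008 in Dnahc8 (an axonemal dynein) and Glp1r (the GLP-1 receptor) lie at chr17:30713114-31038812. Glo1 had 0.398 ppm in the untagged ChIP, 0.436 and 0.361 ppm in the Tip60 ChIP upon GFP KD and Hdac6 KD, 0.196 and 0.177 ppm in the Hdac6 ChIP upon GFP KD and Tip60 KD, and 0.454 and 0.357 ppm in the p400 ChIP upon GFP KD and Hdac6 KD. The 4 rows stood at 2.22 to 2.57 times the file median in the untagged ChIP, and their medians were 2.33 to 2.82 times in the other 6 files (3 of the rows have p400 values). The 17 rows within 0.5 Mb on either side stood at a median of 1.34 times in the untagged ChIP and 0.955 to 1.24 times in the others. The lowest of the chosen rows was above the highest of these neighbours in the untagged, Tip60 and p400 files. In the Hdac6 ChIP it was not, at 1.9 times against 1.98 upon GFP KD and 1.72 times against 2.09 upon Tip60 KD. In the untagged file this standing follows in part from the choice of the rows, and the block was picked after the values had been seen. The 2 rows inside the stretch that were not chosen stood at 0.687 times, and 56.2% to 85.1% of their stretches were repeated.

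By name, the chosen rows were a mixed set of genes. 235 rows carried a symbol, from 210 genes, and 133 did not (36.1%, against 38.3% of all rows), of which 106 lay inside an annotated gene and 27 between genes. 21 symbols had more than 1 row, and 4 of these (Arhgef3, Sfi1, Slc29a1 and Slc37a1) had rows at 2 loci. 4 families or name stems with several members are the replication-dependent histones, the ribosomal proteins, the zinc finger proteins and the solute carriers.

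Replication-dependent histone genes, which are clustered and lack introns, gave 5 of their 62 rows (8.06%, against 1.0% of all rows by construction). Hist1h2be had 0.335 ppm in the untagged ChIP, 0.194 and 0.211 ppm in the Tip60 ChIP upon GFP KD and Hdac6 KD, 0.134 and 0.127 ppm in the Hdac6 ChIP upon GFP KD and Tip60 KD, and 0.262 and 0.152 ppm in the p400 ChIP upon GFP KD and Hdac6 KD. The others were Hist4h4 (0.308 ppm untagged), Hist1h1e, Hist1h4h and Hist1h1b, and Hist1h2be and Hist1h1e share a window. The median of all 62 histone rows was 0.199 ppm untagged.

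Ribosomal protein genes gave 5 of 116 rows (4.31%), led by Rps28 (0.314 ppm untagged) and Rps27 (0.291 ppm), with Rpl13, Rps15a and Rpl23a. Zinc finger genes gave 6 of 387 rows (1.55%), led by Zfp219 (0.336 ppm) and Zfp574 (0.292 ppm), and rows named Gm or Rik gave 14 of 1406 (0.996%), led by Gm13154 (0.406 ppm) and Gm13251 (0.342 ppm), both in repeated sequence. The immunoglobulin-like and MHC names gave H2-Bl (0.313 ppm) and Ly6e (0.292 ppm) of 92 rows. Among name stems with 3 or more loci, Slc gave 6 of 437 rows, led by Slc3a2 (0.326 ppm), Lrrc gave 3 of 70 with Lrrc15 (0.304 ppm), Tmem gave 3 of 221 with Tmem141 (0.375 ppm), Cd gave 3 rows (2.94%) with Cd244 (0.304 ppm) and Fam gave 3 of 263 with Fam161a (0.312 ppm). These shares lay between 1.14% and 4.29%.

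Several multicopy families had no chosen row, which for most of them is near the 1.0% of all rows. None of 1089 olfactory receptor rows, 213 vomeronasal receptor rows, 95 cytochrome P450 rows, 71 protocadherin rows, 54 defensin rows, 44 chemokine rows and 32 lipocalin rows was chosen, nor any of 56 rows of multicopy germ cell genes on the sex chromosomes, 7 of small RNAs or 6 of Speer genes. For all of these but the olfactory and vomeronasal receptors, 1.0% of the rows is less than 1 row. Their medians in the untagged file were 0.0206 to 0.136 ppm, below the 0.155 ppm of all rows, except for the 7 small RNA rows (0.191 ppm). No row carried a microRNA name.

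Of the 8 genes with ChIP-qPCR primers in the study, 7 had rows and none was chosen. Nodal, a TGFβ family ligand of the early embryo, ranked 457 of all rows (0.271 ppm) and Cdkn1a ranked 2258 (0.234 ppm). Speer2 served in the study as a locus without binding, and here it ranked 35008 with 0.0595 ppm in the untagged ChIP. Among 18 pluripotency genes, a list put together after the values had been seen, 5 were chosen (against 1.0% of all rows), namely Sox2 (0.355 ppm, rank 52), Lin28a (0.334 ppm, rank 72), Gdf3 (0.309 ppm, rank 114), Pou5f1 (0.305 ppm, rank 130) and Tdgf1 (0.287 ppm, rank 250). The rest of the list was not chosen and ranked from 1483 (Klf2) to 21960 (Zfp42), with Nanog at 1817 and Dppa3 at 16216. Zfp42, at 0.143 ppm, lay below the median of all rows (0.155 ppm). As the list was made with the values known, its share was not tested.

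The chosen rows were close to the rest in GC content and in the share of repeated sequence, but not in CpG content or in copy number. Median GC content was 48.9% in the chosen rows and 47.8% over all rows, with 51.7% in the focal and 37.2% in the mitochondrial rows. 32 rows (8.70%) were repeated over at least 10% of their stretches, against 11.1% of all rows, and with 36-base stretches the shares were 13.9% and 16.1%. The median CpG content per 100 bases was 2.41 in the chosen rows against 1.75 over all rows. The most frequent of the 50-base stretches of a window occurred a median of 35 times in the genome for the chosen rows (48 with 1 row per locus) against 11 times over all rows.

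Across the other 6 files the chosen rows were high as well, at medians of 1.21 to 1.63 times those of all rows. Their median was 0.260 ppm in the Tip60 ChIP upon GFP KD (1.63 times that of all rows) and 0.220 ppm upon Hdac6 KD (1.53 times). It was 0.157 ppm in the Hdac6 ChIP upon GFP KD (1.52 times) and 0.161 ppm upon Tip60 KD (1.57 times). In the p400 ChIP, which does not use the Flag antibody, it was 0.285 ppm upon GFP KD (1.46 times) and 0.196 ppm upon Hdac6 KD (1.21 times).

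Above the 99th percentile of the same file, which 1.0% of all rows exceed by construction, lay 83 of the 368 rows in the Tip60 ChIP upon GFP KD (22.6%) and 69 upon Hdac6 KD (18.8%). In the Hdac6 ChIP the counts were 67 (18.2%) upon GFP KD and 59 (16%) upon Tip60 KD, and in the p400 ChIP 44 of 235 (18.7%) upon GFP KD and 25 (10.6%) upon Hdac6 KD. Above the file median lay 359, 339, 325 and 328 of 368 rows in the 4 Flag files of tagged cells, in the same order, and 229 and 188 of 235 rows in the p400 files. Most chosen rows were thus above the middle of each file, and a minority were at its top.

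**Figure D3:**
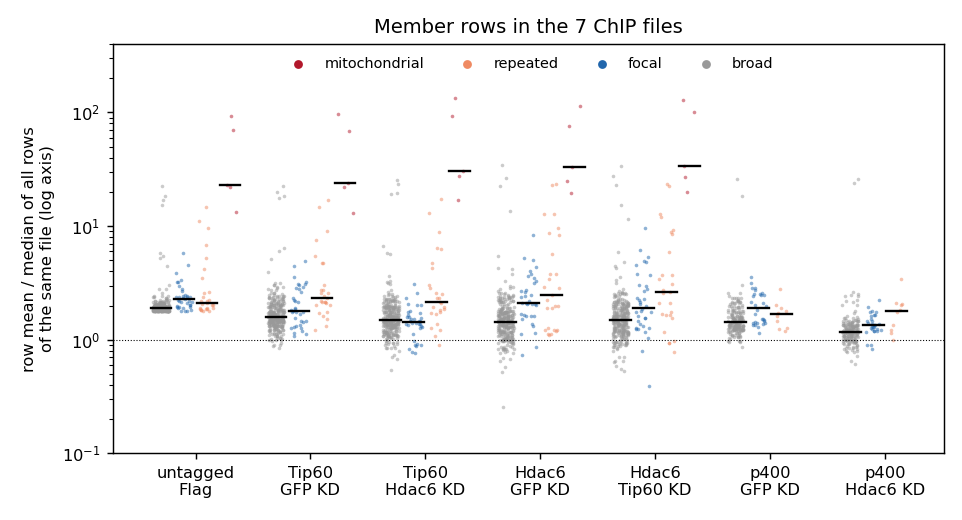
Mean of each row over the median of all rows of the same file (log axis) in the 7 files, by class, with a bar at the class median and a dotted line at 1. Mitochondrial rows have no p400 values. The class medians of broad rows lie at 1.88 in the untagged file and between 1.18 and 1.58 in the others.

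The classes differed in this. Broad rows had a median of 0.292 ppm in the untagged ChIP (lowest 0.277, highest 3.49), 0.252 ppm in the Tip60 ChIP, 0.149 ppm in the Hdac6 ChIP and 0.279 ppm in the p400 ChIP, each upon GFP KD, which is 1.58, 1.44 and 1.43 times all rows. Focal rows had 0.351 ppm untagged and, upon GFP KD, stood at 1.8, 2.10 and 1.92 times all rows in the Tip60, Hdac6 and p400 ChIPs. Repeated rows stood at 2.33, 2.46 and 1.68 times. Of the focal rows, 15 of 36 (41.7%) were above the 99th percentile of the Tip60 ChIP upon GFP KD and 16 (44.4%) of the Hdac6 ChIP upon GFP KD, whereas 48 (16%) and 32 (10.7%) of the 300 broad rows were.

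Among rows that do carry p400 values, the highest p400 signal upon GFP KD was at both Sfi1 rows and Npas4, and the lowest at Zfp52, Tfpi and Ap1g2. Zfp52 had 0.280 ppm in the untagged ChIP but 0.170 ppm in the p400 ChIP upon GFP KD, at the 37.5th percentile of that file. Tfpi (tissue factor pathway inhibitor) had 0.293 and 0.185 ppm, and Ap1g2 (an adaptor subunit of vesicle coats) 0.279 and 0.190 ppm. High untagged signal was thus not always matched in the p400 file.

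Across rows, the untagged level went with the level in the other files (Spearman's rank correlation of 0.687 with the Tip60 ChIP upon GFP KD over 36733 rows, 0.557 with the Hdac6 ChIP upon GFP KD, and 0.665 with the p400 ChIP upon GFP KD over 22704 rows). Over the chosen rows alone the values were 0.460, 0.348 and 0.342 (n = 368, 368 and 235). These are descriptions across rows, which share windows, base composition and mapping, and rows are not replicates.

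The rule used the mean of the profile and not its shape, but a peak also raises the mean. Most focal rows lay below the threshold outside their densest 300 bp, such as Dlgap3 (0.183 ppm) and Cyb5r4 (0.186 ppm). Those rows were chosen only through that peak, whereas a minority, such as Npas4 (0.457 ppm), stayed above the threshold without it. The shape of focal rows and their count of RE1-like matches are therefore not free of the choice. The share of signal in the densest 300 bp of focal rows is at least 25% by the definition of the class. The densest 300 bp held a median of 14.9% of the untagged signal of the chosen rows, and 36.1% (25.5% to 52.8%) of that of focal rows. Of the 36 focal rows, 10 had their densest place within 500 bp of the TSS, 17 had it further upstream and 9 further downstream.

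The densest place of focal rows in the untagged ChIP was dense in the other files too. That same 300 bp held a median of 27.1% of the row's signal in the Tip60 ChIP upon GFP KD, 32.9% in the Hdac6 ChIP upon GFP KD and 32.9% in the p400 ChIP upon GFP KD, against 7.49% to 8.40% in broad rows over the 6 files. The densest place of the file itself lay within 200 bp of that of the untagged ChIP in 30 of 36 focal rows in the Tip60 ChIP, 33 in the Hdac6 ChIP and 28 of 30 in the p400 ChIP, each upon GFP KD. Upon Hdac6 KD the share was lower, 14.5% in the Tip60 ChIP and 12.5% in the p400 ChIP, whereas upon Tip60 KD it was 31.5% in the Hdac6 ChIP.

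Npas4 was the focal row with the highest untagged signal. Over its densest 300 bp, in an intron of Npas4 around the printed element, the untagged ChIP had 6.34 ppm, the Tip60 ChIP 5.54 ppm upon GFP KD against 2.48 ppm upon Hdac6 KD, the Hdac6 ChIP 5.21 ppm upon GFP KD and 7.17 ppm upon Tip60 KD, and the p400 ChIP 4.96 ppm and 1.23 ppm for GFP KD and Hdac6 KD. The rest of the window had 0.457 ppm in the untagged ChIP.

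Scrt1, a neuronal zinc finger repressor, had 2.07 ppm in the untagged ChIP over its densest 300 bp, 2.71 and 0.501 ppm in the Tip60 ChIP upon GFP KD and Hdac6 KD, 7.13 and 8.42 ppm in the Hdac6 ChIP upon GFP KD and Tip60 KD, and 2.68 and 0.399 ppm in the p400 ChIP upon GFP KD and Hdac6 KD. Glra1, a glycine receptor subunit, had 3.10 ppm untagged, 2.55 and 0.612 ppm in the Tip60 ChIP, 3.68 and 4.23 ppm in the Hdac6 ChIP, and 2.18 and 0.476 ppm in the p400 ChIP, in the same order. Gprin1, a regulator of neurite outgrowth, had 4.16 ppm untagged, 3.65 and 1.29 ppm in the Tip60 ChIP, 1.47 and 1.64 ppm in the Hdac6 ChIP, and 3.33 and 0.555 ppm in the p400 ChIP. At Scrt1 the Hdac6 ChIP was above the untagged sample, and at Gprin1 it was below. A read spans 148.5 to 148.7 bp in the Hdac6 files and 299 bp in the others, which makes peaks narrower and higher in the Hdac6 files, so these heights are compared with the untagged sample only as values.

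Not all focal rows held a match. At Tmem141, without a match, the densest 300 bp had 2.00 ppm in the untagged ChIP, 0.869 and 0.188 ppm in the Tip60 ChIP upon GFP KD and Hdac6 KD, 1.91 and 0.658 ppm in the Hdac6 ChIP upon GFP KD and Tip60 KD, and 1.65 and 0.351 ppm in the p400 ChIP upon GFP KD and Hdac6 KD. At Gtf3c6 (a subunit of transcription factor IIIC), the p400 ChIP had 0.975 ppm upon GFP KD (mean depth of 24.7 reads) against 0.0807 ppm upon Hdac6 KD (2.53 reads). At Npm2, a chaperone of the egg, the Hdac6 ChIP had 0.610 ppm upon GFP KD (7.07 reads) and 0.181 ppm upon Tip60 KD (1.67 reads). The lower values thus rest on few reads.

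**Figure D4:**
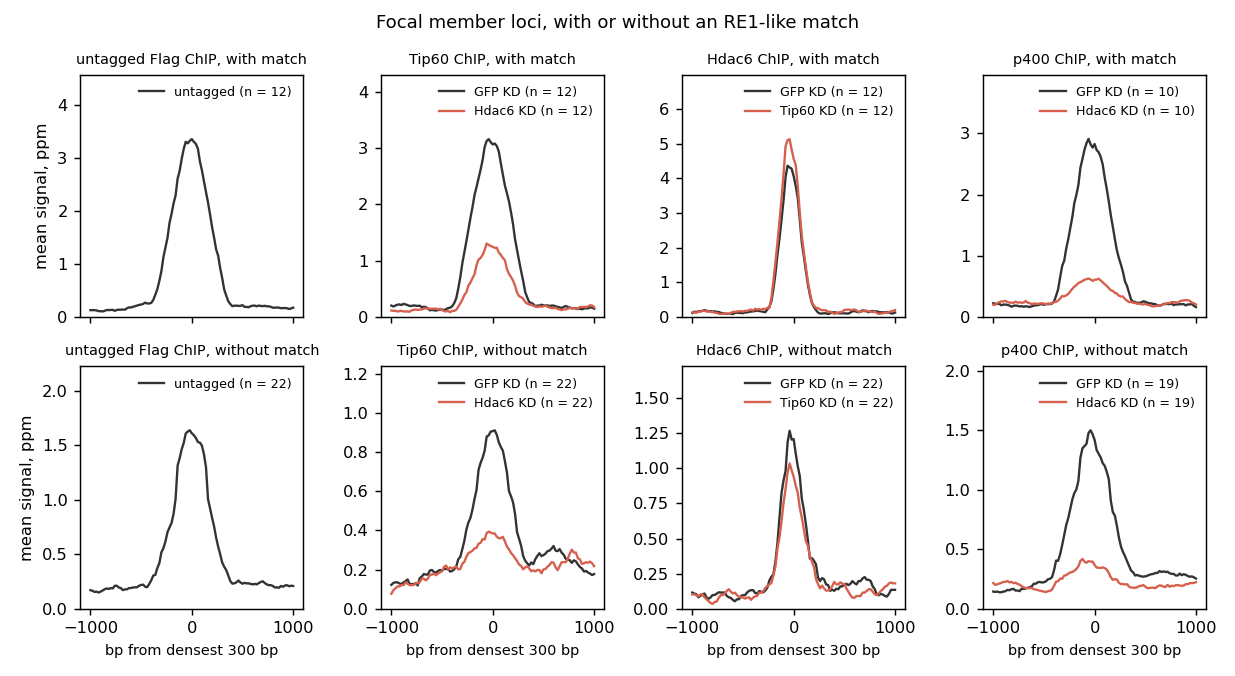
Mean signal (ppm) around the densest 300 bp of the untagged profile at the focal loci with an RE1-like match (upper row, n = 12, or 10 with p400 values) and without one (lower row, n = 22, or 19), in the untagged, Tip60, Hdac6 and p400 ChIPs, with GFP KD in black and the other knockdown in red. Each panel has its own vertical scale, and around the centre the red line lies below the black one in the Tip60 and p400 panels, while towards the edges it meets or passes it.

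Upon Hdac6 KD, the signal over this densest place was lower in the Tip60 and p400 ChIPs at most of the 34 focal loci, and more so than in the rest of the window. The median log2 ratio of Hdac6 KD to GFP KD in the Tip60 ChIP was −1.39 inside the densest 300 bp and −0.47 outside, and 23 of 34 loci were at least 2-fold lower inside, against 28.6% of all rows at the densest place of their own untagged profile. In the p400 ChIP it was −2.01 inside and −0.35 outside, and 26 of 29 loci were at least 2-fold lower (21.5% of all rows). In the Hdac6 ChIP, upon Tip60 KD, it was −0.03 inside and 0.01 outside, and 6 of 34 loci were at least 2-fold lower (25.9% of all rows), 1 of which had next to no signal in either library. Over all rows the medians at the densest place were −0.17, −0.26 and 0.07 for the Tip60, p400 and Hdac6 ChIPs.

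Loci with and without a match were alike in direction in the Tip60 and p400 ChIPs. A match was at least 16 letters anywhere in the window, so the groups do not separate densest places with and without an element. Celsr3, with its match 1112 bp away, and Vstm2l, with its match 161 bp away, are in the first group. The densest 300 bp of both held the exact left part at another place. Rtbdn, with a 15-letter element at 13 bp, is in the second. So are the unnamed row at chr17 56381139, Ankrd13b, Cacng2 and Cyb5r4, whose densest 300 bp held the exact left part. With a match the median inside was −1.45 in the Tip60 ChIP (12 loci) and −2.17 in the p400 ChIP (10 loci), and without one it was −1.20 (22 loci) and −1.77 (19 loci). In the Hdac6 ChIP upon Tip60 KD it was 0.19 with a match (lowest −0.14, highest 1.45) and −0.19 without, where 5 loci were below −1. The difference between these groups was not tested, since the groups were formed after the values had been seen and each condition is 1 library.

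Signal at RE1-like matches was not limited to the chosen rows. The 146 windows with a match held 122 distinct matches, and each was counted once, in its window of highest untagged mean, which left 107 in rows that were not chosen. At these, all but 2 of which could be measured, the signal at the match was a median of 2.13 times that of the rest of the window in the untagged ChIP, 2.04 times in the Tip60 ChIP upon GFP KD and 1.39 times upon Hdac6 KD. For the Hdac6 ChIP it was 4.04 times upon GFP KD and 3.96 times upon Tip60 KD. In the p400 ChIP (87 matches) it was 2.14 times upon GFP KD and 1.33 times upon Hdac6 KD. The shorter read span of the Hdac6 files makes peaks narrower and higher, so their ratios are not set against those of the other files. The rows with these matches ranked at a median of 13297 in the untagged file. 12 of them lay in the top 5% of the file and 21 in the top 10%. Both the window counted for a match and the rows left out were set by the untagged mean. The untagged ratio and the ranks are therefore not free of that choice.

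The knockdown comparisons use libraries that did not choose the rows. Each compares 2 libraries, and effects of a knockdown and of culture or library preparation cannot be told apart. A row was called in 2 ways, by a 1.5-fold change of its mean, and by an adjusted p under 0.05 in a two-sided exact conditional binomial test of its reads against the normalizing reads of the files, with Benjamini-Hochberg adjustment over all rows. The test covers counting error only, compares libraries and not conditions, and calls smaller changes in rows with more reads, as the chosen rows have.

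In the Tip60 ChIP, the median log2 ratio of Hdac6 KD to GFP KD was −0.27 over the 368 rows and −0.15 over all rows, and it was below 0 in 267 rows (72.6%, against 62.5% of all rows). 81 rows were at least 1.5-fold lower, against 17.3% of all rows, which is 22.0% of the 368, and 5 were at least 1.5-fold higher, against 6.25% of all rows. By the read test 29 were lower and 4 higher (2.44% and 0.399% of all rows). After each file was divided by the median of its row means, 41 were at least 1.5-fold lower and 11 higher, or 11.1% and 2.99%, where all rows gave 10.5% and 10.7%. The share of lower rows was then near that of all rows, and the share of higher rows stayed below it.

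Focal rows had the lowest ratios in the Tip60 ChIP (median −0.71), with 21 of 36 at least 1.5-fold lower, against 17.3% of all rows. Broad rows had a median of −0.27, with 57 of 300 lower (19%, near the share of all rows), and all 5 mitochondrial rows were higher (median 0.24). The largest falls were at Glra1, an unnamed row at chr5 130500053 in Asl and Arhgap17. Glra1 went from 0.463 ppm (133 reads) upon GFP KD to 0.112 ppm (29 reads) upon Hdac6 KD (log2 ratio −2.05, adjusted p = 7.8e-11 in the exact binomial test). The row in Asl (argininosuccinate lyase) went from 0.250 to 0.0779 ppm, and Arhgap17 (a GTPase activating protein) from 0.279 to 0.102 ppm, both past the read test. The largest rises were at the unnamed row at chr5 66395524 (0.179 to 0.320 ppm, adjusted p = 0.042 in the exact binomial test), Gpsm2 (0.192 to 0.307 ppm) and Il11ra1 (0.148 to 0.232 ppm), and neither Gpsm2 nor Il11ra1 passed the read test.

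In the Hdac6 ChIP, the median log2 ratio of Tip60 KD to GFP KD was 0.02 over the 368 rows and 0.01 over all rows. 17 rows were at least 1.5-fold lower and 16 higher, which is 4.62% and 4.35%, below the 8.9% and 8.82% of all rows. The division by file medians left 17 and 16 called, against 8.86% of all rows on either side. By the read test none was lower and 3 were higher, against 1 and 3 of all rows (0.00276% and 0.00827%). Those 3 were an unnamed row at chr10 79858340 in Mbd3 and 2 mitochondrial rows.

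The row at chr10 79858340, in Mbd3 (a subunit of the NuRD complex), stood apart in the Hdac6 ChIP. It had 0.303 ppm in the untagged ChIP, 0.356 and 0.190 ppm in the Tip60 ChIP upon GFP KD and Hdac6 KD, and 0.301 ppm (94 reads) in the Hdac6 ChIP upon GFP KD against 1.20 ppm (299 reads) upon Tip60 KD. The log2 ratio was 1.99, with an adjusted p of 3.2e-33 in the exact binomial test. Next were the unnamed row at chr7 80686632 in Chd2, a chromodomain helicase gene (0.0266 to 0.0976 ppm, 8 and 24 reads), and Trp53inp1 (0.0709 to 0.154 ppm). Among the largest falls were Arhgef3 (0.173 to 0.0922 ppm) and Traf1 (0.184 to 0.108 ppm), and none of these 4 passed the read test.

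In the p400 ChIP, 218 of 235 rows (92.8%) had less signal upon Hdac6 KD than upon GFP KD, against 71.6% of all rows, and the median log2 ratio was −0.54 against −0.26. 101 rows were at least 1.5-fold lower (43.0%, against 22.9% of all rows) and none was higher (3.52% of all rows). By the read test 109 were lower and 1 was higher (18.1% and 1.57% of all rows). After division by file medians, 58 were lower and 3 higher (24.7% and 1.28%), where all rows gave 8.6% and 10.6%. Broad rows alone had a median of −0.54 and focal rows of −0.71.

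The largest falls in the p400 ChIP were at Gtf3c6, Sfrs7 (a splicing factor) and Lrrc8d (a subunit of volume-regulated anion channels). Gtf3c6 went from 0.487 ppm (166 reads) to 0.147 ppm (62 reads), a log2 ratio of −1.73 with an adjusted p of 4.1e-14 in the exact binomial test. Sfrs7 went from 0.376 to 0.143 ppm and Lrrc8d from 0.377 to 0.145 ppm, both past the read test. The largest ratios on the other side were at Gm6034 (0.231 to 0.339 ppm, the 1 row called higher, 28.9% repeated), Gm13251 (0.245 to 0.325 ppm) and Ap1g2 (0.190 to 0.240 ppm), of which Gm13251 and Ap1g2 did not pass the read test.

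**Figure D5:**
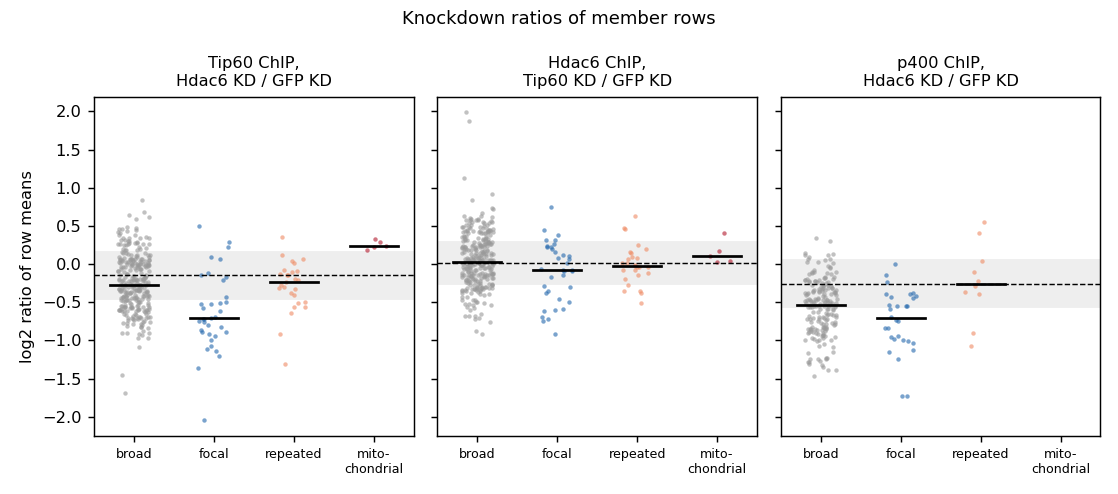
Log2 ratio of row means, knockdown over GFP KD, of the chosen rows by class in the 3 comparisons, with a bar at the class median, a dashed line at the median of all rows and a grey band over the middle 50% of all rows. Focal rows lie lowest in the Tip60 panel (median −0.71), the Hdac6 medians lie near 0, and the p400 medians of broad and focal rows (−0.54 and −0.71) lie below the dashed line.

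The ratio also moved with the untagged level and with GC content over all rows. From the 10% of rows with the lowest untagged level to the 10% with the highest, the median log2 ratio went from −0.07 to −0.46 in the p400 ChIP, from 0.01 to −0.21 in the Tip60 ChIP and from 0.01 to 0.03 in the Hdac6 ChIP. From the 20% of rows lowest in GC content to the 20% highest it went from 0.06 to −0.27 in the Tip60 ChIP and from −0.15 to −0.28 in the p400 ChIP. The chosen rows are at the end of the first series, and the part of level and GC content in their ratios was not tested.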

How the data were processed

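The 7 deposited files hold coverage signal around TSSs. As the authors' methods describe, identical reads were merged while counting their copies, Bowtie placed them on mm9 with at most 1 mismatch (a read with several matches went to a random one), and extended reads outside simple repeats were summed around TSSs, normalized and put into 20 bp bins. The values carry a depth: they are whole multiples of a step (within 0.02 of a step), from which the normalizing reads and the reads per row were computed. Extension to 150 bp is stated, but an isolated read covers 148.5 to 148.7 bp in the Hdac6 files and 299 bp in all others. Duplicate reads are kept, so read counts are not independent molecules.

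From these values, row means, the 99th percentile, classes, knockdown ratios and the binomial tests were computed with Python 3.11.15, numpy 2.4.6, pandas 2.3.3, scipy 1.17.1 and statsmodels 0.14.6, and drawn with matplotlib 3.10.9. The test was checked on simulated reads drawn independently for each row. The simulation had no duplicate reads or shared windows, so it cannot show how the test behaves with those of the deposited data. Sequence, repeats and annotation came from NCBIM37 (mm9) and GENCODE M1, whose starts most often lay 1 base after the position given in the files (7554 plus and 7288 minus strand rows). Rows without a symbol are named by chromosome and that position.

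The members and lists were chosen with earlier results of these data known. Named were the 10 highest loci, 3 rows on either side of the threshold, the leading members of families and name stems, the 3 largest rises and falls per comparison, the p400 extremes, the loci with most rows and the ChIP-qPCR genes. The classes, the RE1 motif, the blocks of neighbouring rows, the focal examples and the pluripotency genes were chosen after the values were seen. A row that the rule names among the falls is not reported here.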

Additional observations from a re-analysis of the deposited data

How the results depend on the processing

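No paired analysis was possible because each condition has 1 sample, and leaving out a replicate was not possible for the same reason. Of 136 values under other settings, 83 moved by less than their counting or order-statistic interval or stayed within 1.5 times, and 53 moved further. A change of direction was looked for only in the median knockdown ratios of the Tip60 and p400 ChIPs, and none was seen.

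For the level in the other files, the ratio of medians was 1.51, 1.42, 1.4 and 1.18 with the 98th percentile (735 rows) in the Tip60 ChIP upon GFP KD and Hdac6 KD and the p400 ChIP upon GFP KD and Hdac6 KD. With the top 184 rows only it was 1.95, 1.68, 1.69, 1.73, 1.60 and 1.25 in the 6 files, and with the mean within 500 bp of the TSS 1.78, 1.78, 1.69 (Hdac6 ChIP, Tip60 KD), 1.59 and 1.27. The percent above each file's own 99th percentile was 14.4, 12.9, 10.7, 9.93, 12.3 and 5.63 with the 98th percentile, 37.0, 25.5, 31, 27.7, 32.1 and 20.2 with the top 184 rows, and 15.5, 13.3, 10.6, 10.3 and 13.2 within 500 bp of the TSS (no move in the p400 ChIP upon Hdac6 KD).

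The median log2 knockdown ratio within 500 bp of the TSS was −0.36 in the Tip60 ChIP (all rows −0.26), 0.10 in the Hdac6 ChIP (0.03) and −0.81 in the p400 ChIP (−0.49). After division by file medians it was −0.13 and −0.28 in the Tip60 and p400 ChIPs (all rows near 0).

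At a 2-fold change the calls were 10 lower and 0 higher in the Tip60 ChIP, 0 lower and 3 higher in the Hdac6 ChIP and 28 lower in the p400 ChIP. After division by file medians they were 41 lower and 11 higher (Tip60) and 58 lower and 3 higher (p400). At an adjusted p under 0.01 of the exact binomial test, 12 were lower and 2 higher (Tip60) and 0 higher (p400). With 1 row per locus, 2 were higher by the read test (Tip60) and 11 lower by 1.5-fold (Hdac6). With 36-base stretches 13.9% of the rows were repeated, and with at least 17 letters, an alternative added after seeing the data, 5 focal rows held the motif.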
